A study of Rattus norvegicus with 12 samples.

Results

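Of the 22701 rows in the long noncoding RNA (lncRNA) table of this series, 3 carry the name of a nuclear factor I (Nfi) gene: Nfib.b, Nfix.d and Nfix.e. They were chosen by name alone, as rows with a name part that begins with Nfia, Nfib, Nfic or Nfix. No row is named after Nfia or Nfic. Such a row is a transcript annotated as noncoding at or near the gene, so its level is not the level of the messenger RNA, which was not analysed here.

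The samples were lumbosacral spinal cords of Wistar rat fetuses on embryonic day 17. The ARM group held fetuses with ETU-induced ARMs, that is, anorectal malformations after exposure of the dam to ethylenethiourea, and the other group held normal fetuses. The lncRNA libraries were 3 ARM and 3 normal ones, and 3 further libraries of each group were made for microRNAs (miRNAs). The sample titles, followed here, number the miRNA libraries on from the lncRNA ones, while the column labels repeat the lncRNA numbers. Whether both kinds of library came from the same cords is therefore not known. The labels name no group exposed to ETU without ARMs, so exposure and malformation cannot be told apart, and they do not say how many fetuses or litters a library holds. P-values therefore measure the spread between these libraries, which may be technical. The cord was whole tissue, so fewer cells of a type and less RNA per cell cannot be told apart.

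The 4 NFI proteins are DNA-binding factors that act as dimers and recognise the letters TTGGC. In the mouse and chick spinal cord, Nfia and Nfib come on in progenitors of the ventricular zone as neurogenesis gives way to gliogenesis, Nfia downstream of Sox9, and both are needed for astrocytes to form. Nfix acts in neural progenitors as well, including the exit from proliferation. Noncoding transcripts are common around such developmental regulators, and many start from the promoter of the coding gene in the opposite direction.

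The rows lie at separate places of the Nfib and Nfix loci. Positions are those of the authors' lncRNA table, and no source used here names a rat build for them. Nfib.b (NONRATT023347.2) lies on chromosome 5, 100439169 to 100496433. It is spliced, with 1170 bases of RNA from a span of 57265 bases. Nfix.e (NONRATT014569.2) on chromosome 19, 25836430 to 25836805, and Nfix.d (NONRATT014570.2), 25886498 to 25886935, are unspliced rows of 376 and 438 bases, 49692 bases apart. No other row of the table overlaps any of the 3. The table holds neither strand nor exon borders, so that reads of the coding genes' introns and exons cannot be told apart from reads of these rows. In the RefSeq annotation of GRCr8, 2 noncoding genes overlap Nfib and 3 overlap Nfix.

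The sequence around the start of Nfib is shown because 4 rows described below belong to a noncoding gene that starts on the other side of it. That gene, LOC100910558 (RGD1564859 in the table), is in GRCr8 the next gene after Nfib, on the opposite strand and facing away from it. The windows below run from 250 bases before to 50 bases after each start. They are 1679 bases apart, on chr5:102019896-102020195 (minus strand) for Nfib and chr5:102021875-102022174 (plus strand) for LOC100910558. Capitals mark the NFI recognition letters TTGGC or their complement GCCAA, searched for on both strands.
Nfib: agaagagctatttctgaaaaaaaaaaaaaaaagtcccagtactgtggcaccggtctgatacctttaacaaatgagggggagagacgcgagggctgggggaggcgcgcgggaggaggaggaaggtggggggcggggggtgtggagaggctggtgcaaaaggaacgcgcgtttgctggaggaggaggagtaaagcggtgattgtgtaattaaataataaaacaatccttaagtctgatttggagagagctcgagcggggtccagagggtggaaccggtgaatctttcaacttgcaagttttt
LOC100910558: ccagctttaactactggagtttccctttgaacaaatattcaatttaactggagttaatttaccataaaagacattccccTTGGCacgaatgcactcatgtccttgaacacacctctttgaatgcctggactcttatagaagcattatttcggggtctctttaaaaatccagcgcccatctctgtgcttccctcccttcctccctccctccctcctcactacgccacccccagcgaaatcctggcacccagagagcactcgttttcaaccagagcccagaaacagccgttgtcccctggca
The LOC100910558 window holds 1 match and the Nfib window 0, as do those of Nfia, Nfic and Nfix. Of 33469 rat promoter windows of 300 bases 45.8% hold at least 1 match, so these counts set none of the genes apart, and a match is not evidence of binding.

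Nfib.b was the highest of the 3 rows. Levels between rows are compared here in FPKM, fragments per kilobase of transcript scaled to the library's total, as the authors deposited them. Nfib.b had 52.2, 32.2 and 53.6 FPKM in ARM replicates 1 to 3, against 30.3, 53.6 and 34.7 FPKM in normal replicates 1 to 3. Both groups held high libraries (ARM replicates 1 and 3, normal replicate 2) and low ones (ARM replicate 2, normal replicates 1 and 3), and the groups overlapped. The mean of all 6 libraries, 42.8 FPKM, ranked 311 among the 22701 rows. The rank is that of the row as the authors counted it, with any reads of the coding gene it took in.

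Nfix.d, the second in order, had 12.0, 29.7 and 16.0 FPKM in the ARM libraries, against 14.3, 17.5 and 18.5 FPKM in the normal libraries. Its normal libraries lay close together, within the ARM range, and ARM replicate 2 stood above all the others. The mean of 18.0 FPKM ranked 1124. Nfix.e had 0.924, 0.634 and 0.699 FPKM in the ARM libraries, against 0.562, 1.12 and 1.14 FPKM in the normal libraries. These values rest on 9, 6 and 5 counts in the ARM libraries and 4, 12 and 13 counts in the normal libraries, so that Nfix.e was near the limit of detection.

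**Figure D1:**
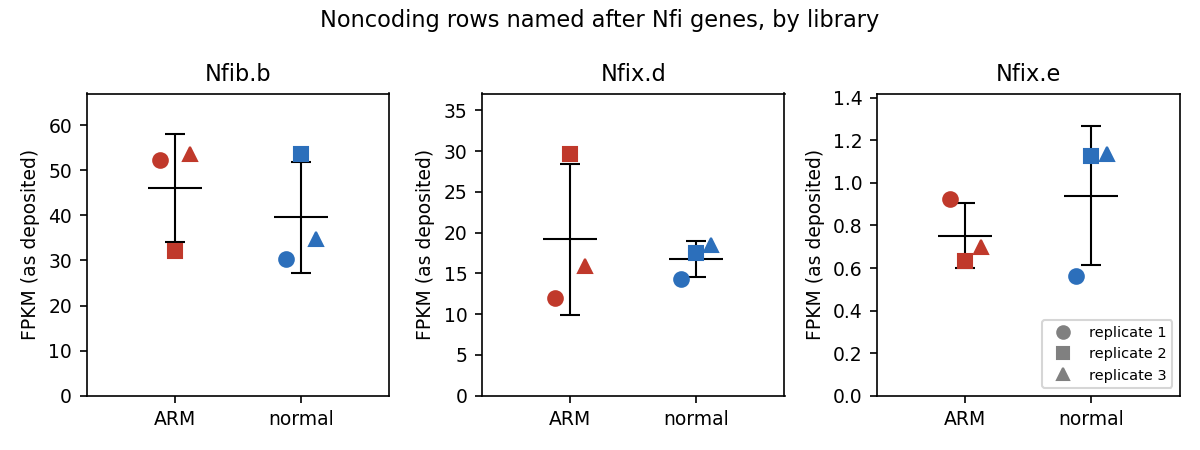
Deposited FPKM of the 3 rows named after Nfi genes, with ARM libraries (red) left of normal libraries (blue), a linear axis from 0 for each row, and the mean with its SD (n = 3) in black. The ARM and normal libraries overlap in all 3 panels, and ARM replicate 2 is the lowest ARM library for Nfib.b and the highest of all libraries for Nfix.d, at 29.7 FPKM.

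The order Nfib.b, Nfix.d, Nfix.e held in each of the 6 libraries. The ratio of Nfib.b to Nfix.d was 4.36, 1.09 and 3.36 in the ARM libraries, against 2.11, 3.07 and 1.87 in the normal libraries. In ARM replicate 2 the first 2 rows were therefore almost level, and elsewhere Nfib.b was clearly ahead. Nfib.b exceeded Nfix.e by 30.6-fold in normal replicate 3, the smallest such ratio, and by 76.7-fold in ARM replicate 3, the largest.

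The comparison of ARM with normal cord asked whether the noncoding output of the Nfi loci changed with the malformation. No Nfi row passed the test (edgeR quasi-likelihood test, adjusted over all 13584 tested rows, n = 3 and 3), and none had an unadjusted p under 0.05 or an adjusted p under 0.05 with DESeq2. Of all rows tested, 0.0515% passed with edgeR, 3.00% had an unadjusted p under 0.05 and, on the rows without a filter, 0.142% passed with DESeq2. Nfib.b and Nfix.d passed the filter on low counts and Nfix.e did not. Levels for this comparison are in CPM, that is, counts scaled to the library's TMM-adjusted total of lncRNA counts and not divided by length.

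Nfib.b averaged 351 ± 87.0 CPM in ARM cord and 301 ± 90.3 CPM in normal cord (SD, n = 3 each). The log2 fold change was 0.22 (SE 0.26, 95% interval -0.41 to 0.86, adjusted p = 1.00), less than the spread between libraries. Nfix.d averaged 55.4 ± 28.4 CPM in ARM cord and 47.9 ± 7.28 CPM in normal cord, a log2 fold change of 0.21 (SE 0.35, 95% interval -0.61 to 1.03, adjusted p = 1.00). Without ARM replicate 2 the Nfix.d difference turned to -0.30, so that library alone sets its direction. The list of 6 sensory ganglion markers matched 2 lncRNA rows, of which Pou4f1.b was tested. Their sum was also highest in ARM replicate 2. It ran from 473 to 612 CPM in ARM libraries and from 499 to 549 CPM in normal libraries. Its part in the Nfix.d difference was not tested. The list's 3 miRNAs, measured in other libraries, summed to 8793 to 14917 CPM in ARM libraries and 7116 to 9801 CPM in normal libraries. For Nfix.e, the summed counts of 20 in ARM cord, against 29 in normal cord, gave 1.87 ± 0.475 and 2.31 ± 0.835 CPM, and with no filter on low counts a log2 fold change of -0.35 (95% interval -1.30 to 0.59, adjusted p = 1.00). The intervals leave room for changes of either sign, so the data do not show that the rows are equal in the 2 groups.

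Summing the rows of a gene left both genes short of the threshold, where 0.0513% of the 11700 tested names passed with edgeR, 3.05% had an unadjusted p under 0.05 and 0.143% passed with DESeq2. The log2 fold change was 0.23 for Nfib, which is its single row, and 0.19 (95% interval -0.60 to 0.98) for the 2 Nfix rows together (edgeR, adjusted p = 1.00 each). Nfib.b held 91.6%, 74.0% and 89.6% of the Nfi counts in the ARM libraries, against 84.5%, 88.6% and 82.6% in the normal libraries. ARM replicate 2 was the lowest of all 6. The mean share of counts was 85.1% in ARM cord and 85.3% in normal cord, a difference of -0.17 percentage points (two-sided exact permutation test, p = 1, where 3 libraries against 3 can reach 0.1). Counts are not divided by length, and Nfib.b is the longest of the Nfi rows. In FPKM its mean share was 69.3% in ARM cord and 68.4% in normal cord, with 51.5% in ARM replicate 2.

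What set Nfib.b and Nfix.d apart from many rows was their spread between libraries of a group. Nfib.b differed 1.87-fold in CPM between its lowest and highest library, and Nfix.d 2.41-fold. Their within-group SD of log2(CPM + 1) was 0.40 and 0.50, against a median of 0.21 over the 8272 tested rows with a mean of at least 10 CPM. Of those rows, 84.3% had a smaller SD than Nfib.b and 89.3% a smaller SD than Nfix.d. The trait was not particular to the Nfi rows. Of the neighbouring rows described below, NR_110679 (0.49), RGD1564859.b (0.49) and NR_110678 (0.81) had a larger SD than Nfib.b, and the others a smaller one. No test was made of this spread. Nfib.b and Nfix.d did not vary together: Nfib.b was low and Nfix.d high in ARM replicate 2.

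**Figure D2:**
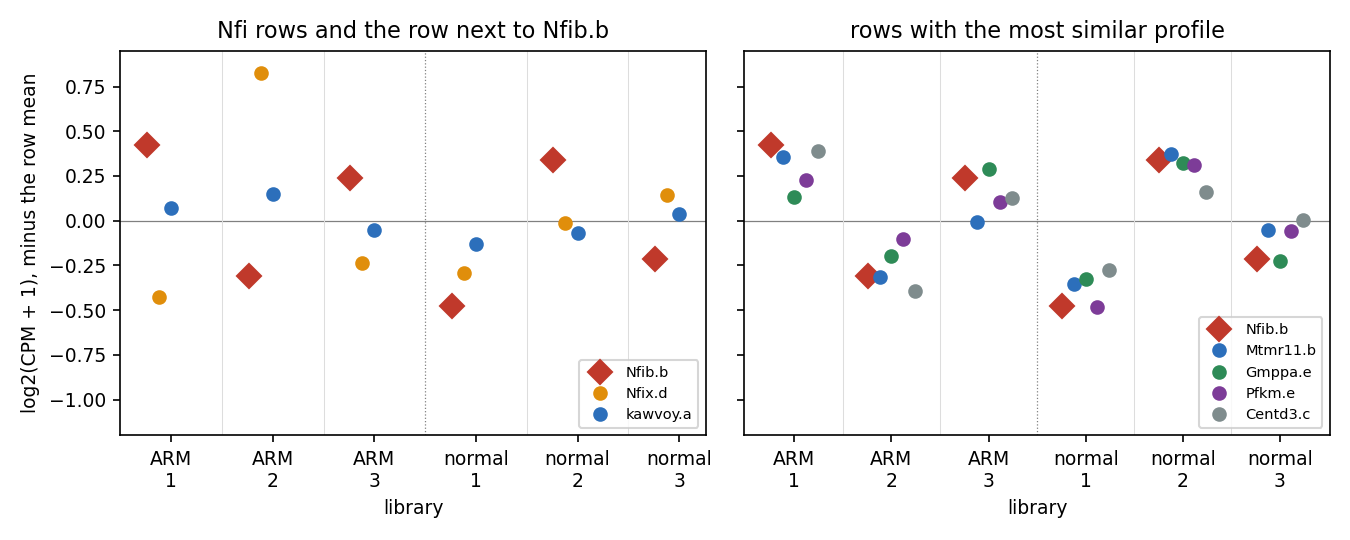
Level of each row by library, as log2(CPM + 1) minus the row's mean, for Nfib.b with Nfix.d and kawvoy.a (left) and with the 4 rows of most similar profile (right). Nfib.b is high in ARM replicates 1 and 3 and normal replicate 2 and low in the others, while kawvoy.a, 2741 bases away, stays close to 0.

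The rows whose profile over the 6 libraries was most like that of Nfib.b were Mtmr11.b, Gmppa.e, Pfkm.e and Centd3.c. They had the smallest root mean square difference from it in centred log2(CPM + 1), 0.13 to 0.15, among 2909 rows at 10 CPM or more that carry a gene symbol (median 0.40). Mtmr11 encodes a myotubularin-related protein, Gmppa a regulator of GDP-mannose synthesis, Pfkm the muscle form of phosphofructokinase, and Centd3 (Arap3) a GTPase-activating protein. Mtmr11.b had 15.6, 9.43 and 11.9 CPM in the ARM libraries, against 9.12, 15.8 and 11.5 CPM in the normal libraries. All 4 are spliced rows, as is Nfib.b, but the share of spliced rows among the 2909 was not counted. Their ARM and normal libraries overlapped, which their choice by likeness to Nfib.b made likely beforehand. This likeness is a description over 6 libraries, whose depth the rows share.

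The Nfi rows have neighbours in the table that carry no coding gene's name. There were 9 rows within 200 kb of an Nfi row with no row of another coding gene between, 6 at Nfib and 3 at Nfix, a choice made after values had been seen. Next to Nfib.b, 2741 bases away, lies kawvoy.a, an unspliced row of 3160 bases on chromosome 5, 100433268 to 100436427. It had 1567, 1655 and 1442 CPM in the ARM libraries, against 1363, 1427 and 1533 CPM in the normal libraries. This was the steadiest row at Nfib: it differed 1.21-fold between its extremes, and 8.97% of rows had a smaller within-group SD. In FPKM it stood at 72.6 on average, above Nfib.b, and Nfib.b came to 0.732, 0.417 and 0.700 of it in the ARM libraries, against 0.450, 0.760 and 0.482 in the normal libraries.

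**Figure D3:**
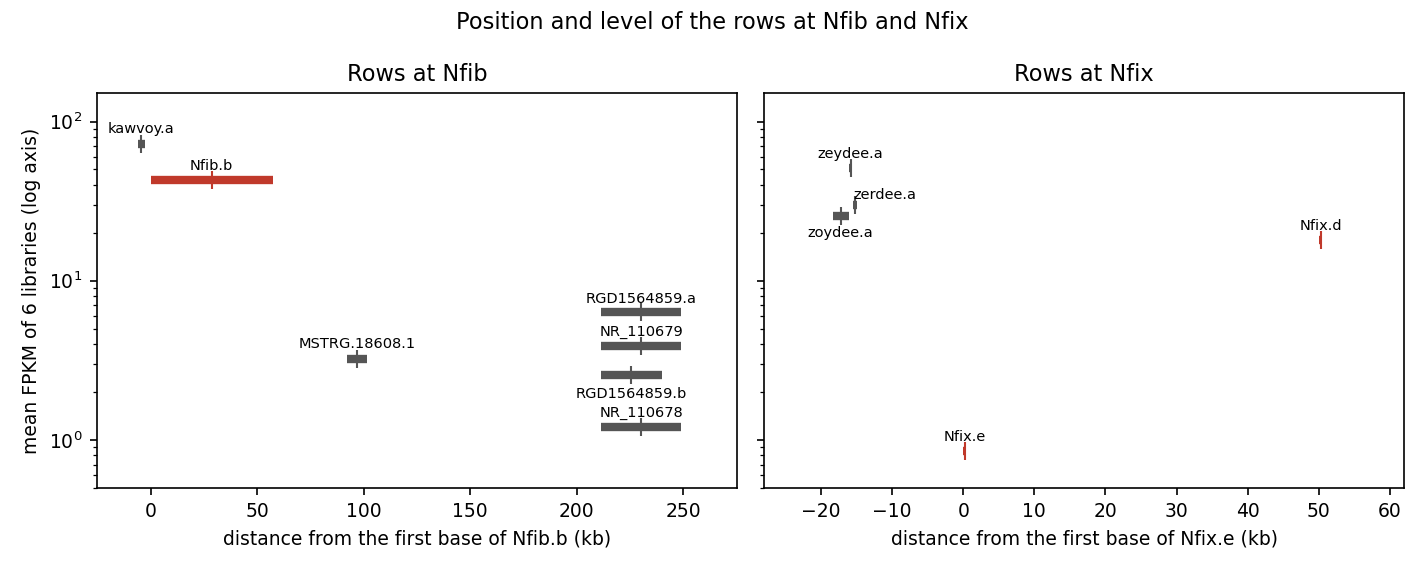
Rows at Nfib (left) and Nfix (right), drawn to scale as bars against the distance in kb from the first base of Nfib.b or Nfix.e, at the height of their mean deposited FPKM over 6 libraries on a log axis. Nfi rows are red and the 9 neighbouring rows grey; kawvoy.a at 72.6 FPKM and zeydee.a at 51.0 FPKM are the highest rows of each panel.

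The rows of the divergent gene LOC100910558 begin 154 kb beyond Nfib.b, at 100650512 on chromosome 5. All 4 of them are spliced and lower in FPKM than Nfib.b. Their mean levels were 6.40 FPKM for RGD1564859.a, 3.90 for NR_110679, 2.56 for RGD1564859.b and 1.21 for NR_110678. Of all rows, 84.6% had a lower mean FPKM than RGD1564859.a and 50.1% a lower one than NR_110678. RGD1564859.a had 63.8, 57.4 and 68.3 CPM in the ARM libraries, against 57.4, 49.8 and 47.6 CPM in the normal libraries. Its groups met at ARM replicate 2 and normal replicate 1, and its log2 fold change was 0.29 (95% interval -0.02 to 0.61, unadjusted p = 0.0643, adjusted p = 1.00 with edgeR). NR_110678, which has the same span, had 4.83, 12.4 and 13.2 CPM in the ARM libraries, against 6.75, 20.7 and 22.8 CPM in the normal libraries. Replicate 1 was lowest in both groups, and the log2 fold change was -0.75 (95% interval -2.01 to 0.51, adjusted p = 1.00 with edgeR). With a library left out it ran from -1.11, without normal replicate 1, to -0.41, without ARM replicate 1. NR_110679 and RGD1564859.b gave -0.25 and -0.12. Rows of a single gene can share exons, and the authors' counting could split reads between them. The remaining row at Nfib, MSTRG.18608.1, averaged 205 ± 48.0 CPM in ARM cord and 186 ± 14.7 CPM in normal cord.

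At Nfix, 3 unspliced rows lie end to end between Nfix.e and the nearest Trmt1 row, 14897 to 16138 bases from Nfix.e. In GRCr8 the coding gene next to Nfix on the Trmt1 side is Lyl1, and the table does not say to which gene the 3 rows belong. Their mean levels were 25.4 FPKM for zoydee.a, 51.0 FPKM for zeydee.a and 29.8 FPKM for zerdee.a, each above Nfix.d. The log2 fold changes were -0.08, 0.06 and -0.09. Of the 9 neighbouring rows none passed the test with edgeR and none passed with DESeq2. With all 6 libraries and no block, none had an unadjusted p under 0.05 with edgeR, and 4 were positive and 5 negative. The shares over all tested rows were 0.0515% passing with edgeR, 0.142% passing with DESeq2 and 3.00% with an unadjusted p under 0.05 (edgeR).

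**Figure D4:**
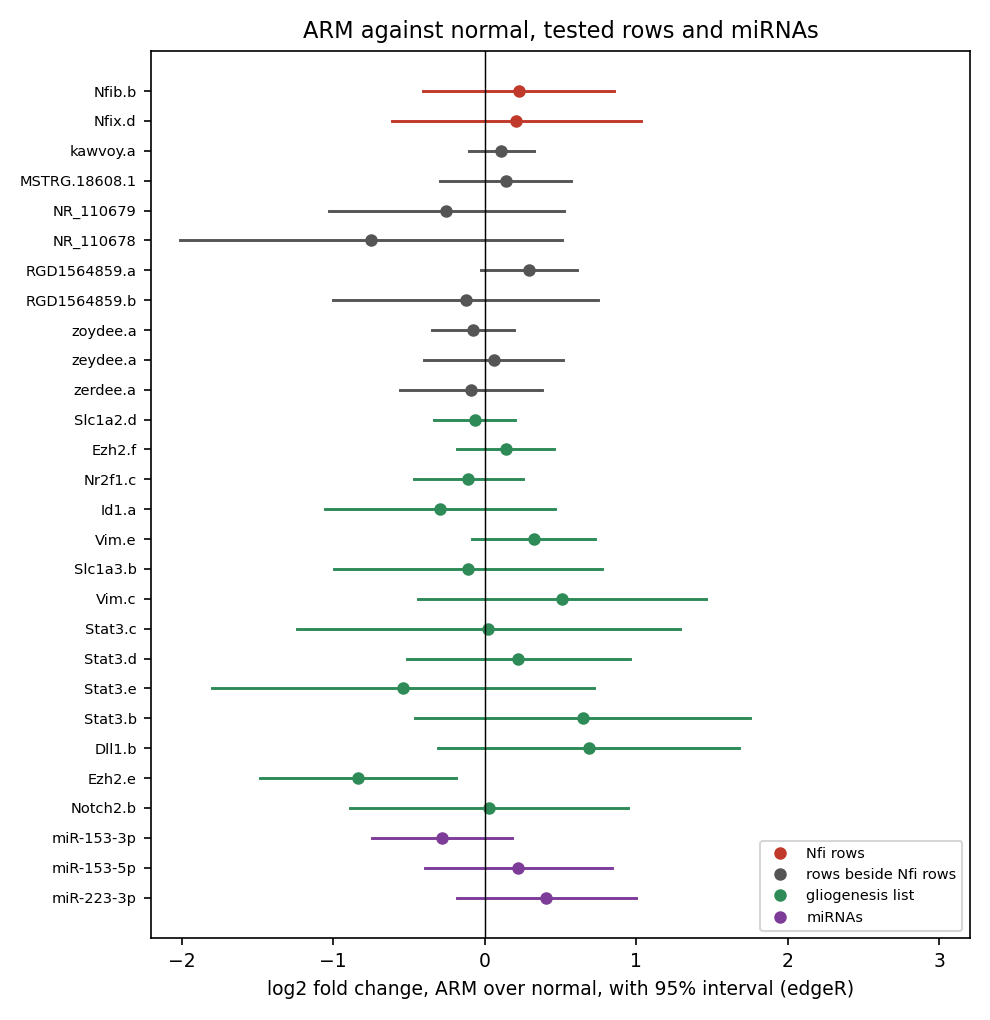
Log2 fold change of ARM over normal with its 95% interval from edgeR, for the 2 tested Nfi rows, the 9 neighbouring rows, tested rows of the gliogenesis list and 3 miRNAs. Every interval shown but that of Ezh2.e includes 0, and no row or miRNA passed after adjustment.

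The wider gliogenic programme was followed through rows named after 47 genes of the switch to gliogenesis, of NFI partners and targets, and of astrocytes and oligodendrocytes. The table held 30 rows for 16 of these genes, and 16 rows of 10 genes were tested. None passed in either direction with edgeR or DESeq2, 1 had an unadjusted p under 0.05, and 10 were positive and 6 negative. Over all tested rows, 0.0515% passed with edgeR, 3.00% had an unadjusted p under 0.05 with edgeR and 0.142% passed with DESeq2. The median log2 fold change was 0.08, against 0.0036 over all 13584 tested rows, of which 50.7% were positive. With a library left out the list's median ran from -0.06, without normal replicate 1, to 0.20, without normal replicate 2, and it was also negative without ARM replicate 3, so its sign rests on single libraries. The groups did not overlap for 2 of the 16 rows, Vim.e and Ezh2.e, where 7.78% of all tested rows did not overlap. The glial miRNAs miR-219a-5p and miR-338-3p summed to 10.2 to 12.9 CPM in ARM libraries and 13.0 to 15.7 CPM in normal libraries. These sums did not overlap, where 8.57% of all single tested miRNAs did not overlap. The 2 lncRNA rows of the same marker list, of which Slc1a3.b was tested, did overlap. They summed to 9.92 to 21.3 CPM in ARM libraries and 9.79 to 17.6 CPM in normal libraries. The part of glial cells in these values was not tested.

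The highest row of the list was Slc1a2.d, named after an astrocyte glutamate transporter, with 88.5, 86.7 and 82.7 CPM in the ARM libraries, against 85.4, 86.0 and 98.7 CPM in the normal libraries. Ezh2.f, named after the enzyme that places the repressive H3K27 methyl mark, averaged 34.1 ± 1.61 CPM in ARM cord and 31.1 ± 3.40 CPM in normal cord. Nr2f1.c, of an orphan nuclear receptor, averaged 31.3 ± 2.27 and 33.7 ± 4.78 CPM in ARM and normal cord, and Id1.a, of a BMP-responsive inhibitor of differentiation, 19.9 ± 3.73 and 24.2 ± 10.5 CPM. All 4 had overlapping groups. Further tested rows were named after the Notch receptor Notch2 and the Notch ligand Dll1, the cytokine-activated factor Stat3, the radial glial filament Vim, the astrocyte transporter Slc1a3 and again Ezh2. Among all 16 rows the log2 fold change ran from -0.84 for Ezh2.e to 0.69 for Dll1.b. Vim.e had 16.1, 14.8 and 17.6 CPM in the ARM libraries, against 13.5, 11.3 and 13.9 CPM in the normal libraries, a log2 fold change of 0.32 (95% interval -0.08 to 0.73, adjusted p = 1.00 with edgeR). It was named after its values were seen. Ezh2.e, named likewise, had 2.41, 2.42 and 1.57 CPM in the ARM libraries, against 4.05, 3.83 and 3.76 CPM in the normal libraries. Its log2 fold change was -0.84 (95% interval -1.48 to -0.19, unadjusted p = 0.0201, adjusted p = 1.00 with edgeR), on 5 to 17 counts a library.

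The miRNA libraries allowed a look at miRNAs reported to act on Nfi messages elsewhere. In mouse neural stem cells, miR-153 targets Nfia and Nfib and holds back gliogenic competence. In human myeloid cells miR-223 targets NFIA and miR-21 targets NFIB. The mature sequences that were tested are shown, from RefSeq on GRCr8, with the seed, bases 2 to 8 from the start, in capitals. In GRCr8 miR-153-3p lies on chr6:144306646-144306667 (plus strand) and miR-223-3p on chrX:65151450-65151470 (plus strand). All 3 seeds differ.
miR-153-3p: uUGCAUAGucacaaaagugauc
miR-153-5p: gUCAUUUUugugauguugcagcu
miR-223-3p: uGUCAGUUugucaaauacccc
None of the 525 tested miRNAs passed with edgeR (0%), 5.90% had an unadjusted p under 0.05 and DESeq2 called 0.424% of its 707. None of the miRNAs of interest was among those called or under 0.05.

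The level of miR-153-3p was 57.5, 58.7 and 37.7 CPM in ARM replicates 4 to 6, against 52.6, 61.5 and 73.2 CPM in normal replicates 4 to 6. ARM replicate 6 was the lowest library and normal replicate 6 the highest, and the other 4 were mixed. The means were 51.3 ± 11.8 CPM in ARM cord and 62.4 ± 10.3 CPM in normal cord, a log2 fold change of -0.28 (95% interval -0.74 to 0.18, edgeR adjusted p = 0.934). Without ARM replicate 6 it was -0.11. The groups overlapped for all 3 tested arms, where 8.57% of all tested miRNAs did not overlap. The partner arm miR-153-5p averaged 1.86 ± 0.247 and 1.60 ± 0.336 CPM in ARM and normal cord. The level of miR-223-3p, a miRNA of microglia and other myeloid cells, was 2.81 ± 0.237 CPM in ARM cord and 2.12 ± 0.591 CPM in normal cord, on 19 to 36 counts a library (log2 fold change 0.41, 95% interval -0.19 to 1.00, edgeR adjusted p = 0.934). It was 0.22 without normal replicate 6 and 0.63 without normal replicate 4. The counts of miR-223-5p, 25 over the ARM libraries and 15 over the normal libraries, were too few for the filter. Both arms of miR-21 are listed at 0 in all 6 libraries, and nothing in the sources used here says whether such zeros are measured absences, so they are not read as absence.

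The tissue label was checked against marker lists. The neural miR-9a-5p was at 323303 to 341077 CPM in ARM libraries and 308719 to 321196 CPM in normal libraries. Its groups did not overlap, as was so for 8.57% of all tested miRNAs. On the same list miR-124-3p lay the other way, with overlap, at 1518 to 1967 CPM in ARM and 1825 to 2496 CPM in normal libraries. The posterior Hox-cluster miR-196a-5p was at 1359 to 1869 CPM in ARM libraries and 1426 to 1790 CPM in normal libraries. The globin row Hbb.d had 675 counts in ARM replicate 3, 12 and 16 in the other ARM libraries and 7 to 12 in the normal libraries, and the 3 blood miRNAs of the list are listed at 0 in all libraries, which for the same reason is no check on blood. In CPM, ARM replicate 3 was neither the highest nor the lowest of the 6 libraries for any Nfi row. Lists of other tissues were uneven in the miRNA libraries. The 4 epithelial miRNAs summed to 85.6 to 587 CPM in ARM libraries, highest in ARM replicate 5, and 109 to 167 CPM in normal libraries. The 3 muscle miRNAs summed to 47.0 to 97.1 CPM in ARM libraries and 26.8 to 100 CPM in normal libraries. Whether such tissue affected the miRNA values above was not tested. Total lncRNA counts ran from 3299241 to 3795224 in ARM libraries and from 3017868 to 4549756 in normal libraries.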

How the data were processed

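Per the file headers, the authors deposited whole-number counts and FPKM values for lncRNA transcripts and whole-number counts and TPM values for miRNAs, 1 column per library. The tools named are, per the submitters' processing notes, Cuffdiff, Cufflinks 2.1.1, TopHat2 2.0.9 and CASAVA 1.8, with the mouse build mm10, although the lncRNA table holds a chromosome 20, which the mouse lacks. Neither a counting tool nor a strand setting is named in what was used here, nor are the steps behind the miRNA table. The deposited TPM values entered no result, and the deposited FPKM values served for levels between rows.

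The counts entered a quasi-likelihood fit in edgeR 4.0.16 under R 4.3.3 (glmQLFit, glmQLFTest, TMM, filterByExpr, Benjamini-Hochberg adjustment over all tested rows, threshold 0.05), ARM minus normal, without covariates, on 13584 lncRNA rows and 525 miRNAs. Standard errors come from the F statistic. Tested on simulated data, the fit missed the smaller of the lncRNA changes put in and a part of the larger ones. A row that did not pass is therefore not shown to be equal in the groups. Other settings tried were DESeq2 1.42.0 on all rows, library totals from FPKM, RLE size factors, no filter, the replicate number as a block, and leaving out each library. Named were all Nfi rows, the 4 highest list rows and any that passed, the 4 closest profiles and the listed miRNAs. Members and lists were chosen with earlier results of these data known. No 2 libraries of a group were alike within counting noise (lowest chi-square over its degrees of freedom 12.4). Of the gliogenesis list, 1 gene enters the counts and is otherwise not reported here. The alternative for a pseudocount did not apply, since counts were given.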

Additional observations from a re-analysis of the deposited data

How the results depend on the processing

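No Nfi row, Nfi gene sum, gliogenesis list row, neighbouring row or listed miRNA passed under any alternative run. Of all lncRNA rows, 7 passed in the edgeR fit, 32 with DESeq2 (on all 22701 rows), 2 with the replicate block and 10 to 18 with a library left out; summed by name, 6 passed, 27 with DESeq2, 1 with the block and 5 to 16 with a library left out. Of the miRNAs, 0 passed in edgeR, 3 with DESeq2 and up to 3 with a library left out.

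The log2 fold change of Nfib.b stayed positive, at 0.05 to 0.49 with a library left out and 0.20 to 0.24 under the other alternatives, while that of Nfix.d ran from -0.30 to 0.44 with a library left out and that of the Nfix sum from -0.29 to 0.40. The difference in the share held by Nfib.b ran from -3.44 to 5.37 percentage points with a library left out, and was 0.94 as a share of FPKM (exact permutation p = 0.9); the cause was not tested. With a library left out, 9 further values changed sign: the median of the gliogenesis list (-0.06 to 0.20), Slc1a2.d (-0.11 to 0.0047), Id1.a (-0.51 to 0.11), and, added after seeing the data, MSTRG.18608.1 (-0.055 to 0.28), NR_110679 (-0.53 to 0.0086), RGD1564859.b (-0.52 to 0.17), zoydee.a (-0.13 to 0.00090), zeydee.a (-0.071 to 0.24) and zerdee.a (-0.19 to 0.089). Same-numbered ARM and normal lncRNA libraries did not deviate together over all rows (correlation across rows -0.06 to 0.03). This does not show that the numbers pair nothing for a single row. With the replicate block Nfib.b was at 0.24, Nfix.d at 0.11 and NR_110678 at -0.69 (SE 0.20, against 0.53 without the block). At this depth a row such as Nfix.e, with 4 to 13 counts a library, allows no statement on direction.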
